A study of Mus musculus with 28 samples.

Results

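A set of 6 hepatocyte genes with transcripts mostly toward the central side of the mouse liver lobule was followed in single sorted pairs of cells. The genes were Slc13a3, Rcan2, Aldh3a2, Lhpp, Tox and Pparg. They are 6 of the 33856 gene rows of the pair table, named as steeply pericentral genes, and all 6 were found by symbol. They were chosen for their position along the lobule and their relation to Glul, with earlier results of these same counts known, and no numeric threshold was given. Their levels over the lobule and between Glul groups are therefore a description, with no test.

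Livers came from C57BL/6 male mice that were fasted for 2 hours, anaesthetised with ketamine and xylazine, and perfused with collagenase to free the cells. The pair wells each held a hepatocyte sorted together with an attached CD31+ cell, an endothelial cell by its surface marker, with 17 libraries made from 3 mice, 6 or 7 weeks old. The other wells held single non-parenchymal cells, from 11 libraries of 2 older mice aged 3 and 4 months. All mice were of the same strain and sex, and no genotype or treatment differed between them. In MARS-seq, which runs in plates, each mRNA molecule receives a unique molecular identifier (UMI) when its 3' end is captured. The 4621 pair wells held 2423 to 49311 gene UMIs each, with a median of 10450. No source ties a well to a library or mouse, so the pair table counted as 1 sample, no difference was tested over mice and no p-value was computed. Intervals are at 95% and reflect the error of counting alone.

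Blood crosses the lobule from the portal triads to the central vein, and hepatocytes along that path carry out different tasks. Wnt proteins and R-spondins made by endothelial cells around the central vein keep beta-catenin active in the nearest hepatocytes. A thin ring of these cells makes glutamine from ammonia with glutamine synthetase, the product of Glul, which serves as the classical marker of that ring. Cyp2e1, a cytochrome P450 gene, and Oat, the gene of ornithine aminotransferase, mark the central side more broadly, while Cyp2f2 and the histidine ammonia-lyase gene Hal mark the portal side.

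The members differ in what their products do. Slc13a3 encodes a sodium-coupled carrier of dicarboxylates such as succinate and alpha-ketoglutarate. Rcan2 encodes a regulator that binds and inhibits calcineurin, the calcium-activated phosphatase. Aldh3a2 encodes fatty aldehyde dehydrogenase, which oxidises long-chain aldehydes to fatty acids, and Lhpp encodes a phosphatase of phospholysine, phosphohistidine and pyrophosphate. Tox encodes an HMG-box nuclear protein known from T cell development, and Pparg a nuclear receptor that drives fat storage in adipocytes.

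TCF/LEF factors, through which beta-catenin acts, bind sites with the core CTTTG, so the promoters of the 2 members with the steepest profiles, Slc13a3 and Rcan2, are shown here. The sequences are the 250 bases before each RefSeq start on GRCm38.p6, written 5' to 3' along the gene, and capitals mark CTTTG or its reverse complement CAAAG. The count tables themselves used mm9, and no coordinate was carried between the builds. RefSeq promoter windows were matched for 4 of the 6 members.
Slc13a3, chr2:165473198-165473447, minus strand: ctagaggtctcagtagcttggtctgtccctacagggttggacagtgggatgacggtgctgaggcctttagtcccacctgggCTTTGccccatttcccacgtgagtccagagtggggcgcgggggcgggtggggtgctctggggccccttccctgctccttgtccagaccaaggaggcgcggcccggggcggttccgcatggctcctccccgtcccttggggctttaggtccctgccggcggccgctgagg
Rcan2 window 1, chr17:43801102-43801351, plus strand: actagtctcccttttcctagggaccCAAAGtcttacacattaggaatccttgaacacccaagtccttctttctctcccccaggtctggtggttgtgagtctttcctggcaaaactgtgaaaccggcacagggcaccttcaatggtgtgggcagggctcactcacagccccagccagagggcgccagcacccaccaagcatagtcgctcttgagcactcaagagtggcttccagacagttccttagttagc
Rcan2 window 2, chr17:43801601-43801850, plus strand: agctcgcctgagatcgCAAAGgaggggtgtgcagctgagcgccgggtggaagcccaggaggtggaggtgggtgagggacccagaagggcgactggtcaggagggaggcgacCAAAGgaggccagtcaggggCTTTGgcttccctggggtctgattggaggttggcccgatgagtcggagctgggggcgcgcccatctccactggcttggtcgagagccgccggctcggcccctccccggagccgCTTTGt
Rcan2 window 3, chr17:43952749-43952998, plus strand: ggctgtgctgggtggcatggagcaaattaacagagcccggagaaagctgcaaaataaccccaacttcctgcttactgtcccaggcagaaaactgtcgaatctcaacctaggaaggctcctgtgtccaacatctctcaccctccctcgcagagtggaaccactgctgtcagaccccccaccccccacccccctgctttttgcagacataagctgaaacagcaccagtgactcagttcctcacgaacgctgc

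The Slc13a3 window held 1 core, and the Rcan2 windows, which belong to different starts of the gene, held 1, 4 and 0. Aldh3a2 had none in its window, and Pparg had 0, 0 and 1 in its 3 windows. The longer motif CTTTGAT, searched on both strands like the core that it contains, was in none of these 8 windows. Of the 32851 mouse promoter windows of the same length, 48.6% held the core and 3.21% the longer motif. A match is a description of letters and not a site.

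Pairs were placed along the lobule by a score that set Cyp2e1 and Oat against Cyp2f2 and Hal. With at least 1000 gene UMIs and 20 UMIs of these landmark genes required, 4255 pairs were kept and 366 left out. The pericentral tertile by that score, the layers 1 to 3 of 9, held 1419 pairs, but 1213 of them had no Cyp2f2 or Hal UMI and tied at the top, so the score could not order pairs inside it. For a profile in 9 layers of equal size the score was therefore written as a log ratio with a constant of 0.1 added to each side, a choice made after seeing the ties. The pericentral tertile of this smoothed score shared 1192 pairs with the first. Levels are UMIs per 1000000 gene UMIs, summed over the pairs of a layer.

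By the smoothed score, Slc13a3 and Rcan2 were concentrated in the first of the 9 layers. From layer 1, next to the central vein, to layer 9, next to the portal triads, the Slc13a3 level was 33.7, 3.93, 3.01, 1.30, 0.855, 0.313, 0.161, 0 and 0.145. Layer 1 held 202 of its 259 UMIs, and its interval of 29.2 to 38.6 did not meet that of layer 2, at 2.49 to 5.89. The Rcan2 level was 19.7, 3.93, 1.17, 0.372, 0.684, 0.313, 0, 0.149 and 0. Layer 1 contributed 77.6% of the summed Slc13a3 levels and 74.8% of those of Rcan2, against 60.8% for Glul itself. From layer 4 on, no single layer held more than 7 UMIs of Slc13a3 or 4 of Rcan2, so the order of those layers could not be read.

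The original score, its ties ordered by the Cyp2e1 and Oat level, gave another profile. Layer 1 was again the highest, but layer 3, where 267 tied pairs met 206 untied ones, stood above layer 2. The Slc13a3 level was 20.6, 2.07 and 15.5 in layers 1 to 3, on 111, 11 and 97 UMIs. The Rcan2 level was 13.7, 1.32 and 7.99, on 74, 7 and 50 UMIs. Layer 1 contributed 46.2% of the Slc13a3 profile and 50.6% of the Rcan2 profile by that score. Lhpp (152, 43.8 and 93.6), Tox (15.9, 4.14 and 9.10), Aldh3a2 (584, 379 and 441) and Pparg (35.6, 17.3 and 21.7) had the same order, and so did Glul, at 1334, 162 and 786. All profiles given next are by the smoothed score.

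Lhpp and Tox were also highest in layer 1 but reached further out. The Lhpp level was 189, 76.6, 48.2, 28.1, 29.1, 16.3, 9.33, 3.43 and 2.61, with overlapping intervals in layers 4 and 5. The Tox level was 18.7, 8.71, 5.69, 4.84, 3.59, 1.88, 1.29, 0.447 and 0.435, and from layer 2 on each layer overlapped the next in its interval. Layer 1 contributed 46.9% of the Lhpp profile and 41.0% of the Tox profile.

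Aldh3a2 and Pparg spread over the central and middle layers. The Aldh3a2 level was 636, 461, 372, 333, 279, 158, 71.6, 15.8 and 10.6, and it stayed at or above 50% of its maximum up to layer 4. The Pparg level was 38.1, 21.8, 20.6, 16, 15.1, 11.1, 4.02, 1.79 and 0.290. It stayed above that mark up to layer 3, and each of layers 2 to 4 overlapped the next in its interval. Layer 1 contributed 27.2% of the Aldh3a2 profile and 29.6% of the Pparg profile, and the mean position was layer 3.03 for Aldh3a2 and 3.06 for Pparg, against 1.48 for both Slc13a3 and Rcan2.

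**Figure D1:**
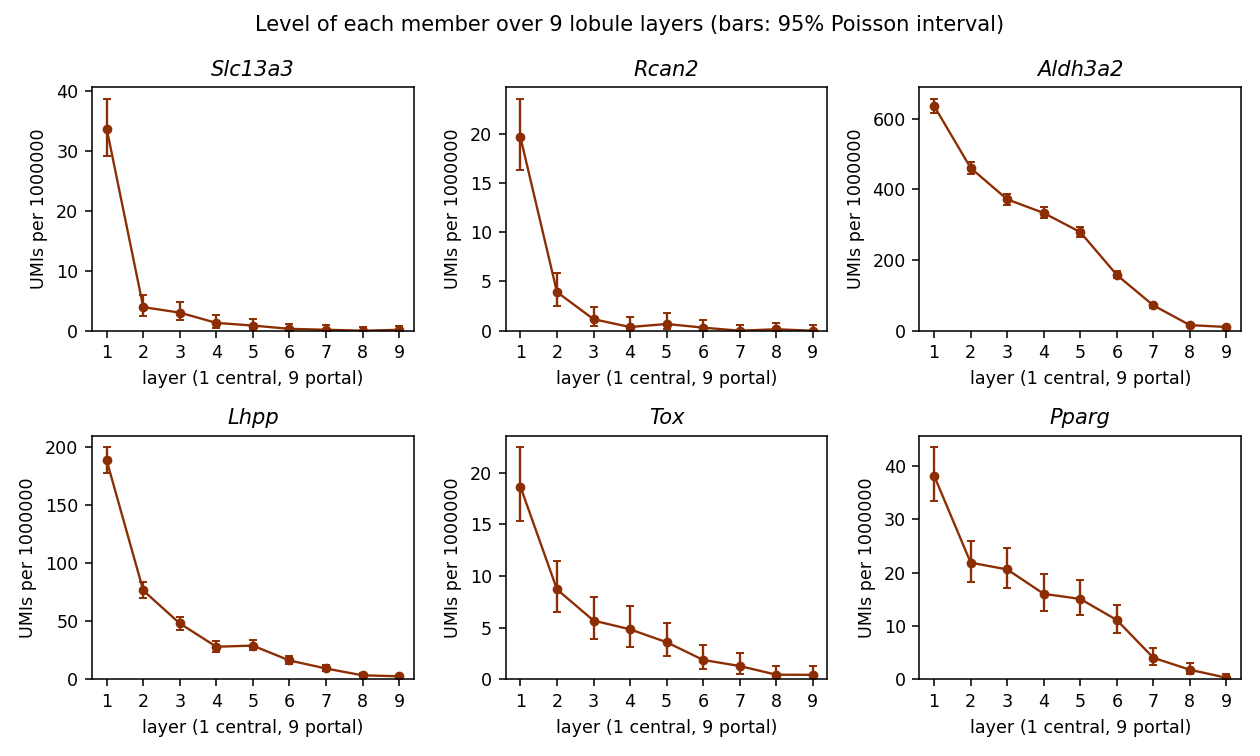
Level of each member (y axis, UMIs per 1000000 gene UMIs, linear and starting at 0) over 9 layers of the smoothed score (x axis, from 1 at the central vein to 9 at the portal triads), with 95% Poisson intervals. Slc13a3 and Rcan2 stand at 33.7 and 19.7 in layer 1 and at 3.93 each in layer 2, while Aldh3a2 and Pparg decline over several layers.

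The ratio of layer 1 over layer 3 set these slopes side by side. Among the members, 4 were at least 2-fold higher in layer 1 by the smoothed score, where 1.2% of 9677 genes with at least 30 UMIs were. Rcan2 had a log2 ratio of 4.07 (interval 2.98 to 5.41), Slc13a3 3.48 (2.79 to 4.27), Lhpp 1.97 (1.78 to 2.16) and Tox 1.71 (1.15 to 2.31). Pparg, at 0.89 (0.57 to 1.22), and Aldh3a2, at 0.77 (0.70 to 0.85), stayed under 2-fold. With the original score, its ties ordered by the Cyp2e1 and Oat level, 0 of 6 members reached 2-fold, where 0.353% of 9625 genes did, and their log2 ratios were 0.41 to 0.81. Tied pairs had the same order among themselves in both, by the Cyp2e1 and Oat level. The 2 scores thus differed in where they placed the untied pairs. With the ties of the original score in the order of the wells the count was also 0. That order carries no position, so nothing is read from this count. Which untied pairs made the difference was not tested.

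The wide contrast was the one the members were chosen on, and it is given once for scale. In the pericentral tertile against the periportal tertile of the original score, UMIs were 219 against 2 for Slc13a3, 131 against 1 for Rcan2, 1641 against 97 for Lhpp and 165 against 14 for Tox. They were 7923 against 624 for Aldh3a2 and 420 against 39 for Pparg. All 6 members were past 2-fold, where 3.05% of 11374 genes were, and nothing is read from that count.

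Glul, which was neither in the score nor among the members, split the pericentral tertile further. Glul-rich pairs were those above the 80th percentile of the Glul level there, at more than 442 per 1000000 (284 pairs, median depth 9668.5 UMIs). Glul-poor pairs were those up to the 50th percentile, at 186 or less (710 pairs, median depth 10326.5 UMIs). Of the Glul-rich pairs, 78.9% fell in layer 1 of the smoothed score.

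Slc13a3 followed Glul most closely among the members. It had 178 UMIs in Glul-rich pairs and 21 in Glul-poor pairs, at levels of 54.2 and 2.47, a 21.9-fold difference (log2 ratio 4.46, interval 3.80 to 5.18). Over the percentile groups of Glul, from up to the 50th, 50th to 80th, 80th to 90th and above the 90th, its level was 2.47, 3.86, 19.9 and 88.9. The lower 2 groups overlapped in their intervals, and the upper 2 stood apart from them and from each other. Glul-rich pairs made up 19.4% of the UMIs of that tertile but held 81.3% of those of Slc13a3.

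Rcan2 showed the same order of groups. It had 93 UMIs in Glul-rich pairs and 17 in Glul-poor pairs, at levels of 28.3 and 2.00, a 14.2-fold difference (log2 ratio 3.82, interval 3.07 to 4.66). Over the percentile groups its level was 2.00, 4.05, 15.7 and 41.1, and again the lower 2 overlapped. Glul-rich pairs held 71.0% of its UMIs.

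The phosphatase gene Lhpp and the HMG-box gene Tox differed by smaller folds. Lhpp had 705 UMIs in Glul-rich pairs and 494 in Glul-poor pairs, at levels of 215 and 58.1 (log2 ratio 1.88, interval 1.72 to 2.05). Over the percentile groups it stood at 58.1, 85.2, 141 and 289, with no overlap between any neighbours. Tox had 65 UMIs against 51, at levels of 19.8 in Glul-rich and 6.00 in Glul-poor pairs (log2 ratio 1.72, interval 1.17 to 2.28). Its percentile groups stood at 6.00, 9.45, 13.3 and 26.4, and each overlapped the next in its interval.

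The enzyme gene Aldh3a2 and the receptor gene Pparg stayed under 2-fold. Aldh3a2 had 2108 UMIs against 3292, at levels of 642 in Glul-rich and 387 in Glul-poor pairs (log2 ratio 0.73, interval 0.65 to 0.81). Its level was 387, 487, 577 and 707 over the percentile groups, with separate intervals. Pparg had 106 UMIs against 182, at levels of 32.3 in Glul-rich and 21.4 in Glul-poor pairs (log2 ratio 0.59, interval 0.23 to 0.95). Its percentile groups stood at 21.4, 25.5, 35.1 and 29.4, and the upper 3 groups overlapped in their intervals. With the Glul percentiles taken anew within layer 1 of the original score, 95 pairs were Glul-rich and 237 Glul-poor. Between these groups the Pparg log2 ratio was -0.18 (interval -0.80 to 0.41).

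**Figure D2:**
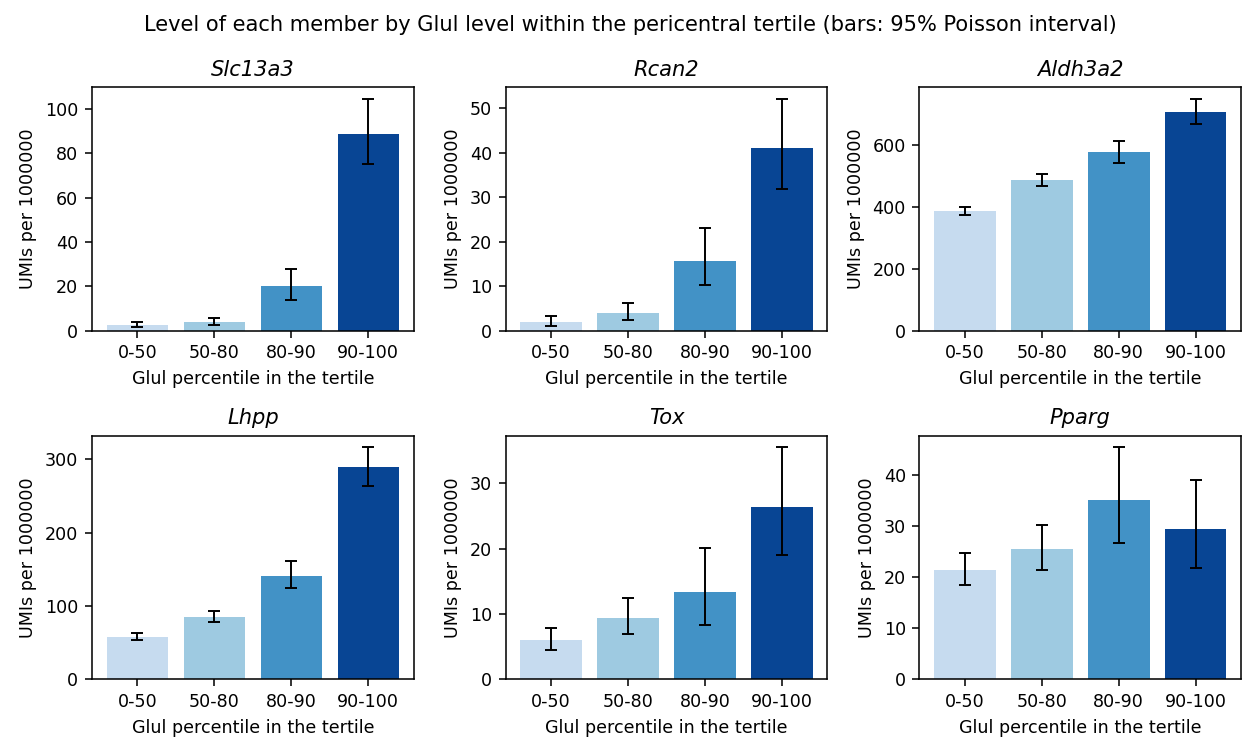
Level of each member (y axis, UMIs per 1000000 gene UMIs) in 4 groups of pericentral pairs by percentile of their Glul level (x axis), with 95% Poisson intervals. Slc13a3 stands at 88.9 and Rcan2 at 41.1 in the group above the 90th percentile, against 2.47 and 2.00 in the group up to the 50th, while the Pparg groups lie between 21.4 and 35.1.

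In this contrast 4 of 6 members were at least 2-fold higher in Glul-rich pairs, where 1.7% of 9651 genes with at least 30 UMIs were. None of the 6 was at least 2-fold lower, where 1.27% of genes were, and the median log2 ratio of all those genes was 0.08. The relation to Glul was named in the choice of the members, so nothing is read from that count. The landmark genes of the score differed between the groups as well. Of the central ones, Cyp2e1 had a log2 ratio of 0.43 and Oat of 2.65, at Oat levels of 2796 in Glul-rich and 444 in Glul-poor pairs. Of the portal ones, Cyp2f2 had 91 UMIs in Glul-rich and 74 in Glul-poor pairs, at levels of 27.7 and 8.70 (log2 ratio 1.67, interval 1.21 to 2.13), and Hal had 0 in both. The part of position in the members' ratios was not tested over the whole tertile.

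Within layer 1 of the smoothed score, 227 pairs were above and 109 at or below the same Glul limits, and Oat still differed between them, with a log2 ratio of 1.22. Slc13a3 had 177 UMIs against 7 there (log2 ratio 3.56, interval 2.48 to 4.89) and Rcan2 93 against 8 (2.43, 1.40 to 3.69). Lhpp had 0.81 (0.57 to 1.06), Tox 1.05 (0.23 to 1.97) and Aldh3a2 0.30 (0.17 to 0.42). Pparg had -0.36 (-0.85 to 0.13). Inside this layer only Slc13a3 and Rcan2 among the members kept a lower bound above 2-fold. In layer 2, with 56 and 258 pairs, Slc13a3 had 13 UMIs in Glul-rich pairs and 4 in Glul-poor pairs, and Rcan2 had 8 against 6.

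The members were also higher in Glul-high pairs of the middle tertile of the original score. In that tertile, 98 pairs were above and 900 at or below those limits. The Slc13a3 level was 24.1 against 0.488, on 20 and 6 UMIs, and the Rcan2 level 10.8 against 0.406, on 9 and 5 UMIs. Lhpp had a log2 ratio of 1.88 (interval 1.51 to 2.23), Tox 2.44 (1.48 to 3.32), Pparg 1.28 (0.66 to 1.85) and Aldh3a2 1.01 (0.86 to 1.15). The whole middle tertile of the smoothed score held only 14 UMIs of Slc13a3 and 8 of Rcan2. Some of the Slc13a3 and Rcan2 UMIs of these Glul-high pairs thus lay in pairs that the smoothed score placed elsewhere. Landmark levels and the share over all genes were not computed for this split. The part of position in these ratios was not tested.

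By well number the pairs formed 17 blocks, each as large as a plate, numbered 1 to 16 and 41. The library titles carry the same numbers, but no source states that a block is a library, and none was assigned to a mouse. The contrast was repeated in each block with at least 10 UMIs of the gene. In such blocks Slc13a3 and Rcan2 each had 0 to 3 Glul-poor UMIs. Those blocks passed the limit mainly through Glul-rich UMIs, so nothing is read from the tallies of these 2 genes. Slc13a3 was higher in Glul-rich pairs in 8 of 8 blocks, with Glul-rich levels of 27.8 to 99.1 (median 61.7) and Glul-poor levels of 0 to 19.6 (median 1.92). Lhpp was higher in 16 of 16 blocks, at 109 to 274 (median 207) in Glul-rich and 26.1 to 83.9 (median 54.6) in Glul-poor pairs. The blocks of the 2 groups did not overlap for these genes, nor for Rcan2 and Tox in fewer blocks. The share of all genes without overlap was not counted, so nothing is read from this.

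Aldh3a2 was higher in 16 of 16 blocks, yet its ranges of 317 to 820 in Glul-rich and 157 to 538 in Glul-poor pairs overlapped. Pparg was higher in 12 of 14 blocks, with ranges of 0 to 80.2 in Glul-rich and 13.3 to 31.5 in Glul-poor pairs. Rcan2 and Tox reached 10 UMIs in 3 blocks each and were higher in Glul-rich pairs of all 3. Rcan2 stood at 52.2, 30.2 and 34.6 in the Glul-rich pairs of those blocks, against 4.56, 0 and 0 in the Glul-poor pairs. Tox stood at 26.6, 24.7 and 15.4 against 11.2, 10.6 and 6.98.

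**Figure D3:**
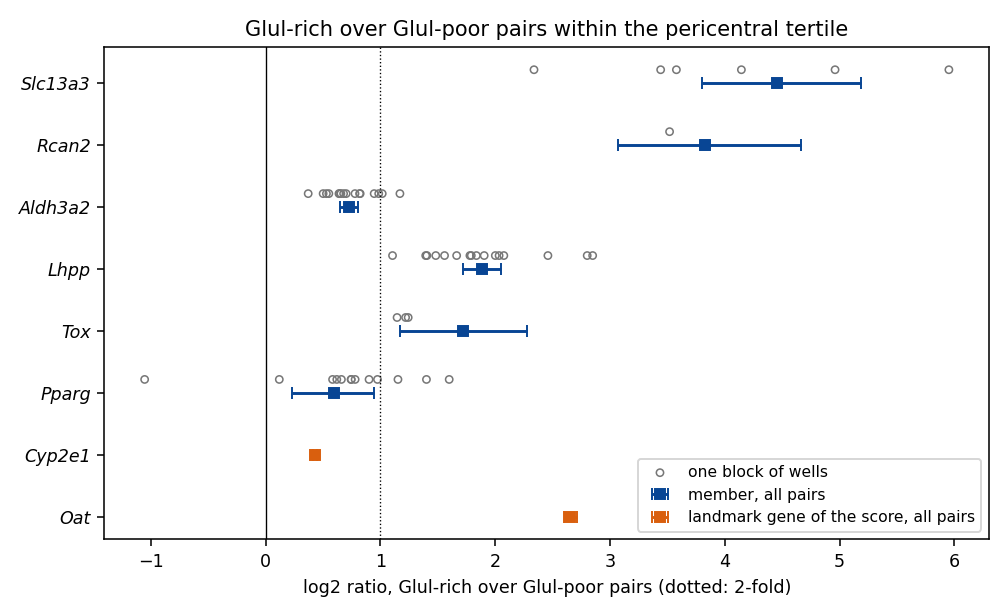
Log2 ratio of the level in Glul-rich over Glul-poor pairs of the pericentral tertile (x axis) for the 6 members and for the score's landmark genes Cyp2e1 and Oat, as squares with 95% intervals. Open circles are single blocks of wells with at least 10 UMIs of the member, drawn where neither group was at 0. Slc13a3 at 4.46 and Rcan2 at 3.82 lie furthest to the right, and Aldh3a2 at 0.73 and Pparg at 0.59 lie left of the dotted 2-fold line.

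Detection in single pairs was sparse for 4 members, Slc13a3, Rcan2, Tox and Pparg. With each pair thinned to 5000 UMIs, which left 240 Glul-rich and 619 Glul-poor pairs and left out 44 and 91 shallower ones, Slc13a3 was seen in 17.1% of Glul-rich pairs (exact binomial interval 12.5 to 22.5) and 1.29% of Glul-poor pairs (0.56 to 2.53). Unthinned, these shares were 31.7% and 2.68%. In the periportal tertile, which served as background, 0 of 1358 thinned pairs had a Slc13a3 UMI, which allows a share of up to 0.221%. Rcan2 was seen in 11.3% of thinned Glul-rich pairs, 1.45% of Glul-poor pairs and 0.0736% of periportal pairs. Tox was seen in 10.0%, 3.07% and 0.295%.

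Lhpp and Aldh3a2 were seen most often. Lhpp was seen in 59.2% of thinned Glul-rich pairs, 21.5% of Glul-poor pairs and 2.5% of periportal pairs, and Aldh3a2 in 92.9%, 80.5% and 13.8%. Pparg was seen in 15%, 9.53% and 1.47%. Unthinned shares in Glul-rich and Glul-poor pairs were 23.2% and 2.11% for Rcan2, 18.3% and 6.62% for Tox, 72.5% and 38.0% for Lhpp, 92.6% and 88.9% for Aldh3a2, and 28.9% and 20.8% for Pparg.

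Slc13a3 and Rcan2 were found in the same pairs more than elsewhere in the pericentral tertile, where depth also differed. The 125 pericentral pairs with a Slc13a3 UMI had an Rcan2 level of 33.9 and a median depth of 13409 UMIs. The 1294 pairs without one had an Rcan2 level of 4.38 and a median depth of 9967.5 UMIs (log2 ratio 2.95, interval 2.44 to 3.47). The first set also had a Glul level of 3835, against 374 in the second. Among Glul-poor pairs, the 19 with Slc13a3 held no Rcan2 UMI, and 17 Rcan2 UMIs lay in the other 691, too few to read a relation. Among Glul-rich pairs, the 90 with Slc13a3 had an Rcan2 level of 45.0 and the 194 without it 15.9, on 63 and 30 UMIs (log2 ratio 1.5, interval 0.85 to 2.18). Median depth was 13516 UMIs in the first of these and 8044.5 in the second. Glul differed between them as well, at 5170 with Slc13a3 and 1903 without it (log2 ratio 1.44). The part of Glul or depth in this Rcan2 ratio was not tested. Pparg differed least by Slc13a3, at 29.7 with and 24.1 without it (log2 ratio 0.30, interval -0.13 to 0.71).

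Genes linked to the members were then set beside them in the Glul contrast, from lists chosen for what their products do. Of 14 Wnt/beta-catenin targets, a list that includes known pericentral genes, 8 were at least 2-fold higher in Glul-rich pairs, 0 were at least 2-fold lower, and the median log2 ratio was 1.31. The glutamate transporter gene Slc1a2 had 5.72 (2532 UMIs in Glul-rich and 124 in Glul-poor pairs) and the ammonium transporter gene Rhbg 5.03 (177 against 14). These exceeded the ratio of Slc13a3. The transcription factor gene Sp5 had 3.21 and Tnfrsf19 2.83. Lgr5, the R-spondin receptor gene, had 2.57, and the feedback inhibitor gene Axin2 2.46, above Lhpp and Tox. Znrf3, a ligase gene that removes Wnt receptors, had -0.21 with an interval of -0.96 to 0.49.

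Close relatives of the members with at least 30 UMIs stayed mostly near 0. Of 11 measured aldehyde dehydrogenase genes other than Aldh3a2, 0 reached 2-fold in either direction, and the median was 0.09. Aldh1a1, which oxidises retinaldehyde, had 0.73, the same as Aldh3a2, and Aldh2, the mitochondrial acetaldehyde enzyme gene, 0.17. The lowest was Aldh16a1, at -0.05. Of 6 measured calcineurin system genes 0 reached 2-fold, and Rcan1, the closest relative of Rcan2 on the list, had 0.42 (interval -0.05 to 0.87). The catalytic subunit genes Ppp3ca and Ppp3cb had 0.24 and 0.02.

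No other Slc13 carrier had at least 30 UMIs. Slc13a4, a sulfate carrier gene, had 16 UMIs in Glul-rich and 7 in Glul-poor pairs. Its levels there were 4.87 and 0.823 (log2 ratio 2.56, with a lower bound above 2-fold). The citrate carrier gene Slc13a5 had 1 UMI in each group, and Slc13a2 had 0 in Glul-rich and 1 in Glul-poor pairs. The 8 genes of the citrate cycle and dicarboxylate handling had a median of 0.00, with Slc25a10, the mitochondrial dicarboxylate carrier gene, highest at 0.35 and Slc25a11, the oxoglutarate carrier gene, lowest at -0.12. Of the phosphatase list beside Lhpp, 0 of 3 measured genes reached 2-fold, and Ppa1, a pyrophosphatase gene, had -0.07. Tox4 was the only measured relative of Tox, at 0.27 (interval -0.13 to 0.66).

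Around Pparg, 0 of 5 other PPAR and RXR receptor genes reached 2-fold in either direction. Ppara, the main PPAR of hepatocytes, had 0.05, Rxra 0.02, and Ppard -0.86 (interval -1.85 to 0.02). Of 10 measured PPARG-linked lipid genes, 1 was at least 2-fold higher and the median was 0.27. That gene was Lpl, which encodes lipoprotein lipase, at 1.64, with levels of 112 in Glul-rich and 36.1 in Glul-poor pairs. The fatty acid uptake gene Cd36 had 0.87, and the desaturase gene Scd1 had -0.90, at levels of 2577 and 4806.

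**Figure D4:**
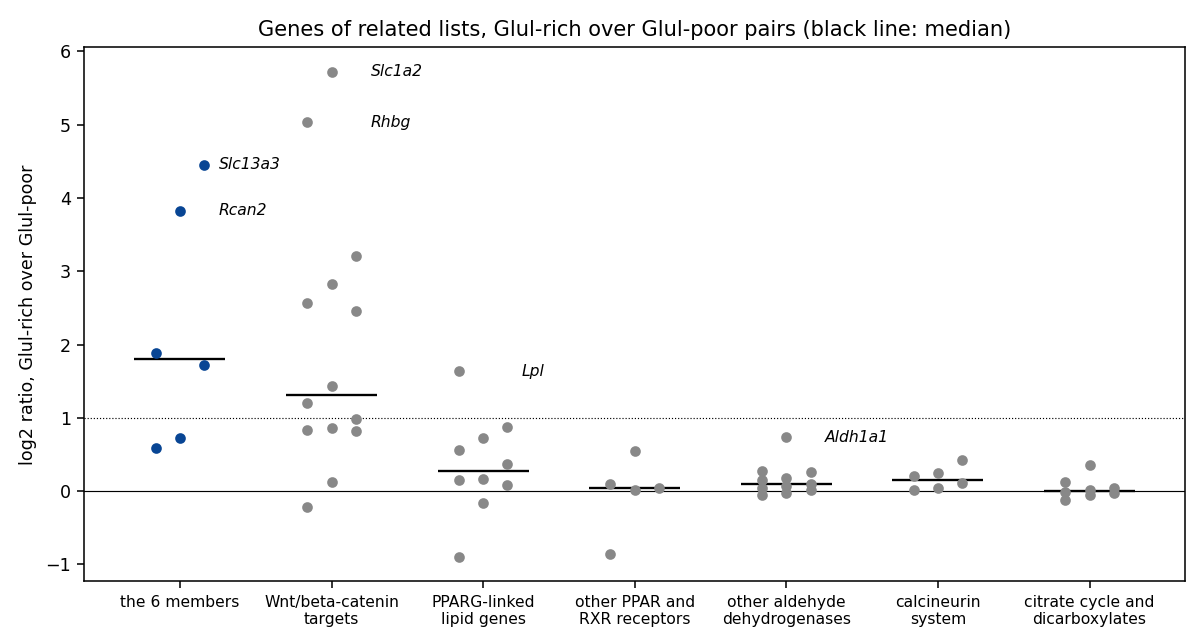
Log2 ratio of the level in Glul-rich over Glul-poor pairs (y axis) for the 6 members (blue) and the measured genes of 6 related lists (grey), 1 point per gene, with black lines at the medians and a dotted line at 2-fold. Slc1a2 (5.72) and Rhbg (5.03) of the Wnt/beta-catenin list lie above Slc13a3 (4.46), and the other aldehyde dehydrogenase genes lie at or below 0.73.

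Likeness of profile was measured as the overlap of 2 profiles over the 9 smoothed layers, each scaled to a sum of 100%, across 10147 genes with at least 100 UMIs. The members, the landmark genes and Glul were left out of this ranking. Slc13a3 was most like Slc1a2 (93.3%) and Rhbg (90.7%), and Rcan2 most like Rhbg (90.3%) and Slc1a2 (89.8%). The third ranked gene for both was Mup17, at 78.7% and 81.5%, where the median over genes was 33.9% for Slc13a3 and 33.1% for Rcan2. Glul, outside the ranking, overlapped Slc13a3 by 82.5% and Rcan2 by 80.3%. Lhpp was most like the thyroxine-binding globulin gene Serpina7 (95.9%), the receptor gene Tnfrsf19 (94.4%) and Cyp2c38 (93.4%), with a median over genes of 56.1%.

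Tox was most like Lpl (97.1%), Cyp2c37 (96.9%) and the tropomyosin gene Tpm2 (95.6%), with a median of 61.3%. Aldh3a2 was most like the complement regulator gene Susd4 (97.4%), Cyp2c40 (97%) and Mup11 (94.9%), with a median of 67.6%. Pparg was most like the hepatokine gene Lect2 (97.2%), Cyp2c40 (95.5%) and the transcription factor gene Tbx3 (95.3%), with a median of 69.7%. Mup and Cyp2c genes have near-identical copies whose reads could be mixed, so their values are uncertain. Among the members the closest profiles were Aldh3a2 and Pparg (94.9%), Lhpp and Tox (94.1%), and Slc13a3 and Rcan2 (92.4%).

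Because each pair holds a second cell, the members were also counted in the single non-parenchymal cells of the older mice, whose wells held 60 to 5531 gene UMIs (median 526.5). In the 2692 wells with at least 300 UMIs, Rcan2 had 0 UMIs, Slc13a3 10, Pparg 17, Lhpp 18, Tox 84 and Aldh3a2 121. Endothelial-like cells, 825 wells, held 0 UMIs of Slc13a3 and Rcan2, 1 each of Lhpp and Tox, 2 of Pparg and 32 of Aldh3a2. With the endothelial share of pair UMIs put at 2.25% from 10 markers, endothelial RNA at these levels would make up at most 0.407% of a member's level in the pericentral tertile, with upper bounds of up to 2.27%. Glul, which set the groups, stood at 963 in endothelial-like cells (547 UMIs), and its endothelial part in the pairs was not computed. The endothelial markers summed to 534 per 1000000 in Glul-rich pairs and 578 in Glul-poor pairs. All 10 were detected, and defining markers such as Kdr were among them.

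Among single cells, Tox stood at 321 in NK-like cells (19 UMIs, interval 193 to 501), against 1.76 in endothelial-like cells. It also had 33 UMIs in a cluster of 488 wells and 27 in one of 363 wells, at levels of 74.3 and 75.9. Most listed T markers were at least 2-fold higher in both clusters, 6 of 6 and 5 of 6, but both were left unnamed. The larger was led by Cd160, Xcl1, Ccl5 and the NK receptor gene Klrc1, with no T marker among its leading 10 genes, and the smaller by the mast cell genes Cpa3 and Tpsb2. The T markers had 0 UMIs in Glul-rich pairs and 1 in Glul-poor pairs, and the NK markers had 0 in both, where Tox had 65 and 51. Aldh3a2 lay between 33.8 and 71.7 in every named class other than the 29 hepatocyte-like wells, where it stood at 129 on 3 UMIs. The albumin gene Alb lay at 2421 to 5621 in those same other classes, and the part of free hepatocyte RNA in the Aldh3a2 values was not tested. Slc13a3 had 6 of its 10 UMIs in 3 wells of monocyte or neutrophil-like cells.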

How the data were processed

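The authors deposited counts: each cell of a table is the number of UMIs of a gene symbol in a well, not normalized. Libraries were MARS-seq, per the labels' protocols. The submitters' processing notes name bcl2fastq 2.15.0.4 and mm9. An aligner, UMI filters and an annotation were not given in the sources used here. ERCC spike-ins (92 rows, 0.715% of UMIs in the pair table) were left out.

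The members and lists were chosen with earlier results of these data known. Named genes were the members, the 3 most similar profiles per member, and genes of the lists, any of which could be named. List genes with neither the largest nor the smallest ratio, such as Lgr5, Axin2, Aldh2, Ppp3ca and Cd36, were picked for their roles after their values were seen. An edgeR test had been planned for wells that map to libraries. They do not, so levels with exact Poisson intervals and ratios with exact conditional binomial intervals were computed (Python 3.11.15, SciPy 1.17.1). The score averaged each side's landmark levels, each divided by its mean, and its pericentral tertile began at 0.977. Single cells were clustered with scanpy 1.11.5 (2000 variable genes, 30 components, 15 neighbours, Leiden resolution 1.0), and 3 listed markers at 2-fold or more gave a cluster its name, unless its leading genes went against it. Doublets were not called in these sorted wells. Intervals, and the limit of 3 counts behind a count of 0, cover counting error only. The ratio step was tested on simulated counts. Alternatives changed the score, layers, depth, scaling, Glul limits and blocks of wells.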

Additional observations from a re-analysis of the deposited data

How the results depend on the processing

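The count of members at least 2-fold higher in layer 1 than in layer 3 depended on the score. It was 0 with the original score, 2 from summed landmark UMIs, 2 without Oat, 4 with 12 other landmark genes, 4 with layers taken within well blocks, 5 with pairs thinned to 5000 UMIs and 4 with the smoothed score, which was added after seeing the data. The 12 other landmark genes included Slc1a2, Lect2 and Cyp2c37, each among the profiles most like a member, so that setting was no independent check. The count stayed at 0 with size factors and with at least 5000 UMIs per pair. Removing the minimum of UMIs and using 18 layers left the same pairs and counts in place, so neither says anything of stability. Leaving out each well block gave 0 to 1, with 1 without block 8. With ties in the order of the wells, also added later, the count was 0 and the log2 ratios turned to -0.79 for Slc13a3, -0.41 for Rcan2, -0.38 for Aldh3a2, -0.54 for Lhpp and -0.57 for Tox. In that order the tied pairs have no order by position.

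The count for Glul-rich over Glul-poor pairs was 4 and lay between 3 and 4 under the 13 alternatives, of which the order of ties and the minimum of UMIs leave the same pairs in place, with 3 when pairs were thinned, where Tox had 0.68 (interval -0.29 to 1.58). It was 4 without any one block. The Pparg ratio turned to -0.18 with layer 1 only, where the Glul percentiles were taken anew. No other member turned in sign in that contrast.

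No paired analysis was possible because wells carry no label of mouse or library. Depth limits Slc13a3, Rcan2 and Tox, with 260, 158 and 271 UMIs in all 4621 pairs. With no minimum of UMIs, 10.5% of genes were at least 2-fold higher in Glul-rich pairs.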
